A study of Homo sapiens with 6 samples.

Results

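Cells obtain purine nucleotides by synthesis from small precursors and by salvage of free bases, and 10 genes that encode enzymes of these routes were followed in Kasumi-1 cells after shRNA against JMJD1C. They were HPRT1, APRT, PPAT, GART, PFAS, PAICS, ADSL, ATIC, IMPDH1 and IMPDH2, picked by symbol from tables of 62016 Ensembl genes. The 10 symbols matched 11 rows, because GART is listed a second time on an alternate scaffold, where it stood at 0 FPKM and was not tested. Kasumi-1 is a human acute myeloid leukemia line, labelled as myeloblast, that carries AML1-ETO, a fusion of RUNX1 with RUNX1T1.

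RNA sequencing covered 6 libraries in 3 groups of 2: control shRNA, JMJD1C shRNA63 and JMJD1C shRNA95, each collected 4 days after infection with a pLKO virus. The JMJD1C protein has a JmjC domain, found in histone demethylases. Each of 2 tables gives 1 FPKM value per group, that is, fragments scaled to transcript length and library size, into which the authors had combined the 2 libraries. A further table set AML1-ETO shRNA (1 library) against its own control (1 library), and these libraries belong to a different series. Whether the paired libraries of a group were separate cultures is not labelled, and the spread behind the p-values may therefore be technical. The same control libraries serve both hairpins.

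JMJD1C stood at 45.1% of control with shRNA63 (13.7 against 30.4 FPKM) and was called lower there. With shRNA95 it stood at 85.3% of control (25.1 against 29.4 FPKM) without a call, so its mRNA gives no check of the shRNA95 label. The depth of each library is unknown. From genes with very low values, the depth of the shRNA groups was estimated at 0.79 times that of the control for shRNA63 and 0.71 times for shRNA95. Of the myeloblast markers, CD34, KIT, CD33 and RUNX1T1 had 19.8 to 245.2 FPKM in the control of the shRNA63 table, while MPO was too abundant to be estimated. MS4A1, HBA1, HBB, COL1A1, COL1A2, PDGFRB, KRT8 and KRT18 were under 1 FPKM in every group. EPCAM, an epithelial gene, had 14.4 FPKM in that control. Of the T cell genes, CD3D had 8.52 FPKM in that control and 2.45 FPKM with shRNA63, and 8.26 and 1.59 FPKM in the shRNA95 table, without a call. CD3E had 0.470 and 0.122 FPKM with shRNA63, where it was called lower, and 0.455 and 0.216 FPKM in the shRNA95 table. Of the myeloblast markers, KIT was called lower (245.2 to 133.8 FPKM) and CD33 higher (19.8 to 35.4 FPKM) with shRNA63, and CD34 higher with shRNA95 (146.1 to 249.0 FPKM). The part of these shifts in the purine values was not tested.

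Purines are built on ribose phosphate that the cell supplies as PRPP. In synthesis from small precursors, PPAT commits PRPP to the pathway, GART, PFAS and PAICS build the ring, ADSL acts both there and in AMP formation, and ATIC closes the ring to give IMP. IMPDH1 and IMPDH2 turn IMP towards GMP. In salvage, HPRT1 joins hypoxanthine or guanine to PRPP and APRT does so for adenine. Dividing blood cells use both routes, and thiopurine drugs of leukemia therapy need HPRT1 for their activation.

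Promoter windows from RefSeq (GRCh38.p14), which run from 250 bases before to 50 after an annotated start, were matched by symbol for 8 of the 10 genes, with 12 windows. The 3 shown are those of the only members that were called in any table and the window that a neighbouring pair of synthesis genes shares. Capitals mark the GC box GGGCGG and the E-box CACGTG, on either strand. The windows are chrX:134459915-134460214 (plus strand) for HPRT1, chr16:88811879-88812178 (minus strand) for APRT and chr4:56435566-56435865 (minus strand) for PPAT.
HPRT1: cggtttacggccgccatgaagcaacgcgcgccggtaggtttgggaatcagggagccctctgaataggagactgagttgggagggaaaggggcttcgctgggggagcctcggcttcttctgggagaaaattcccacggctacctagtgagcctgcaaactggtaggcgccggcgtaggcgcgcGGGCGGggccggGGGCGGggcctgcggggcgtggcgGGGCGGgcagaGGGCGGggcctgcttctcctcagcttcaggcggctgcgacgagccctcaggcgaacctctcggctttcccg
APRT: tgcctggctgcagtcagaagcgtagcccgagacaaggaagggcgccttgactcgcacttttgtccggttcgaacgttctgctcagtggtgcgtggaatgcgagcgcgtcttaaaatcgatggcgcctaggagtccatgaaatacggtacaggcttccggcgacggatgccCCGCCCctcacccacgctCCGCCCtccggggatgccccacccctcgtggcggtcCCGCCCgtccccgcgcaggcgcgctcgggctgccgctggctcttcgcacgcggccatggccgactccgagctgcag
PPAT: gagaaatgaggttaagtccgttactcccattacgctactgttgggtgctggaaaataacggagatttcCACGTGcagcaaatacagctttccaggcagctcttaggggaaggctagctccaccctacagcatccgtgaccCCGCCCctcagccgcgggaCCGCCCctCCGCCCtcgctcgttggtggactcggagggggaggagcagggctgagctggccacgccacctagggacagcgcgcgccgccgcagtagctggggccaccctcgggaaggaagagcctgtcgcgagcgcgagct

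HPRT1 has 4 GC boxes just before its start, APRT 3 and PPAT 3. A GC box was found in 9 of the 12 member windows, against 45.0% of all 35116 promoter windows of this length. Each of the 8 genes had it in at least 1 window, a count by gene that has no such background. The windows with a GC box held 57% (PFAS) to 72.7% (IMPDH1) G and C, against a median of 58.7% over all windows. The part of this content in the matches was not tested. An E-box was found in 3 of the 12 windows, of PPAT, PAICS and ATIC, against 7.26% of all windows. The start sites of PPAT and PAICS lie 137 bases apart on opposite strands, and the 2 windows share 236 bases, so the E-box of PPAT at -182 from its start is the one at 40 in the PAICS window and is counted in both. The 3 GC boxes of PPAT also lie in the shared bases and are counted in both windows. ATIC holds an E-box at -46 and another at 29. CCAAT was found in 3 of the 12 windows, all of GART, against 34.6% of all windows, and TATAAA in 1 of 12, also of GART, against 11.5%. Of the 3 GART windows, 2 nearly coincide and hold the same CCAAT matches. GART shares a divergent start with SON, 146 bases away. The palindromic NRF1 core motif and the letters TGATGNAA, of the kind that ATF4 binds, were found in no member window, against 1.24% and 3.62% of all windows. Searches used both strands, and a match describes letters only.

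In the controls the 10 genes spanned a wide range of levels per length. In the shRNA63 table, PAICS was highest at 397.2 FPKM, followed by IMPDH2 at 244.2, GART at 172.5 and APRT at 165.4 FPKM. ADSL had 126.1, HPRT1 90.7, ATIC 81.8 and PPAT 68.1 FPKM, and IMPDH1 at 33.0 and PFAS at 32.3 FPKM were lowest. The tables give no spread between libraries for these levels, so the order of close neighbours such as GART and APRT is not resolved. IMPDH2 stood 7.41 times above IMPDH1, and PAICS 5.83 times above PPAT across their shared start. At the median, control values were 1.03 times higher in the shRNA63 table than in the other, although the libraries are the same, so values are set against the control of their own table only.

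**Figure D1:**
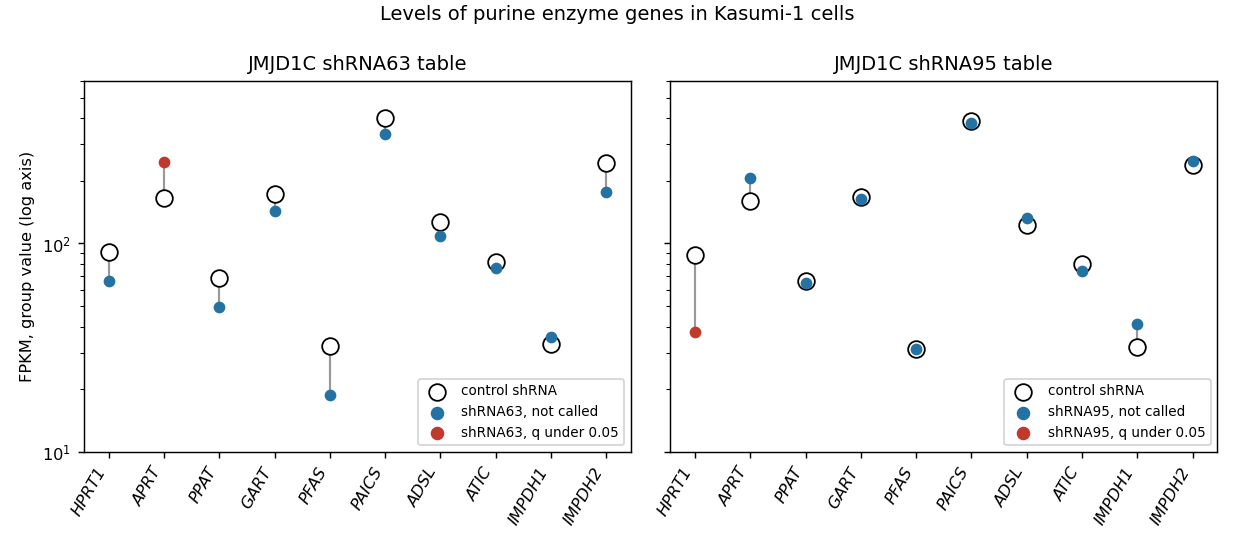
Group FPKM (log axis) of the 10 genes in the shRNA63 table (left) and the shRNA95 table (right); open circles are control shRNA, filled circles the JMJD1C shRNA, red where the authors' q was under 0.05. APRT is the only red point with shRNA63 (165.4 to 246.7 FPKM) and HPRT1 the only one with shRNA95 (87.9 to 37.8 FPKM).

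With shRNA63, APRT rose while the genes of ring synthesis lay below control without a call. The authors' deposited table called 1 of the 10 genes, against 5.12% of 18271 tested genes (2.29% called higher and 2.83% lower), so the count itself does not stand out. APRT had 165.4 FPKM in the control and 246.7 FPKM with the hairpin. This is 0.58 on the log2 scale (error 0.26, 95% interval 0.064 to 1.09, q = 0.0432) in the authors' deposited table. Its size ranked 408 among 419 higher calls in that table, near the smallest that were called. The errors are the authors' log2 fold change over their test statistic.

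The other salvage enzyme gene, HPRT1, had 66.0 FPKM with shRNA63 against 90.7 in the control. Its log2 fold change there was -0.46 (error 0.29, 95% interval -1.03 to 0.11, q = 0.231) in the authors' deposited table, which is not a call. The APRT to HPRT1 ratio of levels was 1.82 in the control and 3.74 with shRNA63.

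Of the 6 genes from PPAT to ATIC, which take PRPP to IMP, all had a negative log2 ratio with shRNA63, and none was called. PFAS, which encodes the synthase of formylglycinamidine ribonucleotide, had the lowest share of control, 18.7 against 32.3 FPKM. On the log2 scale it was at -0.78 (error 0.45, q = 0.312) in the authors' deposited table. It shares its locus in the table with CTC1, so its value may hold reads of that gene. PPAT had 49.7 against 68.1 FPKM, and its fold change was -0.45 on the log2 scale (error 0.32, q = 0.409) in the authors' deposited table. ADSL had 108.5 against 126.1 FPKM and ATIC 75.9 against 81.8 FPKM, or 86.0% and 92.8% of control. The locus of ADSL holds 4 genes of the table, SGSM3 among them (41.2 against 34.8 FPKM), and that of PPAT holds 2, the other being AC068620.1 with at most 0.112 FPKM.

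GART had 143.8 against 172.5 FPKM with shRNA63, but its log2 fold change of -0.26 carried an error of 0.77 in the authors' deposited table. Its locus runs from 34876238 to 35349992 on chromosome 21 in hg19 and holds 12 genes of the table, SON and DONSON among them. SON, the divergent neighbour, had 102.2 against 122.4 FPKM with shRNA63 and 86.5 against 118.6 FPKM with shRNA95, without a call. PAICS had 335.6 against 397.2 FPKM, or 84.5% of control.

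At the branch to GMP, IMPDH2 had 177.1 FPKM with shRNA63 against 244.2 in the control, and IMPDH1 had 35.7 against 33.0 FPKM. The log2 fold change of IMPDH2 was -0.46 (error 0.26, 95% interval -0.97 to 0.040, q = 0.141) in the authors' deposited table. That of IMPDH1 was 0.12 (error 0.29) in the authors' deposited table. The ratio of IMPDH2 to IMPDH1 was 7.41 in the control and 4.96 with shRNA63.

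Across the 10 genes the median of log2((FPKM + 1)/(FPKM + 1)) with shRNA63 was -0.25, against 0.0087 for 14475 measured genes. Of the 10 ratios 8 were negative, as were 48.9% of those of all measured genes. An unadjusted p under 0.05 was given to 4 of them in the authors' deposited table, APRT and, on the lower side, HPRT1, PFAS and IMPDH2. Of all tested genes 13.4% had such a p, and 6.67% had one on the lower side. Between the lowest and highest control level of the 10 genes the table tested 3942 genes and called 205 (5.20%), and the smallest call had a size of 0.53 on the log2 scale. The changes of HPRT1, PPAT and IMPDH2 were smaller than any called in that range.

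In the libraries labelled shRNA95, HPRT1 fell and the synthesis genes lay near control. The authors' deposited table called 1 of the 10 genes, against 4.4% of 18006 tested genes (2.59% called higher and 1.82% lower). HPRT1 went from 87.9 to 37.8 FPKM, or 43.0% of control. Its log2 fold change was -1.22 (error 0.30, 95% interval -1.80 to -0.64, q = 0.00216) in the authors' deposited table. By size it ranked 136 among 327 lower calls, and 1.33% of 14391 measured genes had a lower ratio. HPRT1 is alone on its locus in the table, from 133594183 to 133654543 on chromosome X in hg19, so no other listed gene shares its reads there.

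APRT had 205.6 FPKM with shRNA95 against 160.4 in the control, or 0.36 on the log2 scale (error 0.27, q = 0.423) in the authors' deposited table. The APRT to HPRT1 ratio of levels was 1.82 in the control and 5.44 with shRNA95. Both salvage genes thus had the sign they had with shRNA63, but the 2 comparisons share their controls.

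The 6 genes from PPAT to ATIC had 93.3% to 108.3% of control with shRNA95, and none was called. PPAT had 64.4 against 66.0 FPKM, PFAS 31.4 against 31.3 FPKM and GART 162.8 against 167.2 FPKM. ADSL had 132.4 against 122.2 FPKM and ATIC 74.0 against 79.3 FPKM. Their 95% intervals remain wide: that of PFAS ran from -0.88 to 0.89, and that of PPAT from -0.67 to 0.60, on the log2 scale.

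PAICS had 375.7 against 385.3 FPKM with shRNA95, which is -0.036 on the log2 scale. The log2 fold change given for it in the authors' deposited table was 0.012, with a test statistic of the opposite sign. Such a conflict of sign was found in 3 of 17729 tested genes with values in both groups, and in 22 of them the deposited log2 fold change and the FPKM differed by over 0.001. PAICS was among the 27 such genes of the shRNA63 table too, with -0.28 deposited and -0.24 from FPKM. From FPKM its error was 0.28 with shRNA95 (95% interval -0.59 to 0.51) and 0.27 with shRNA63.

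IMPDH1 had 41.3 FPKM with shRNA95 against 31.9 in the control, at 0.37 (error 0.30, q = 0.497) in the authors' deposited table. IMPDH2 had 249.2 against 236.7 FPKM. The median ratio of the 10 genes was -0.015, against 0.032 over all measured genes, with 5 negative and 5 positive, where 46% of all measured genes were negative. HPRT1 alone had an unadjusted p under 0.05 in the authors' deposited table, which gave such a p to 12.3% of tested genes, and to 5.1% on the lower side.

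**Figure D2:**
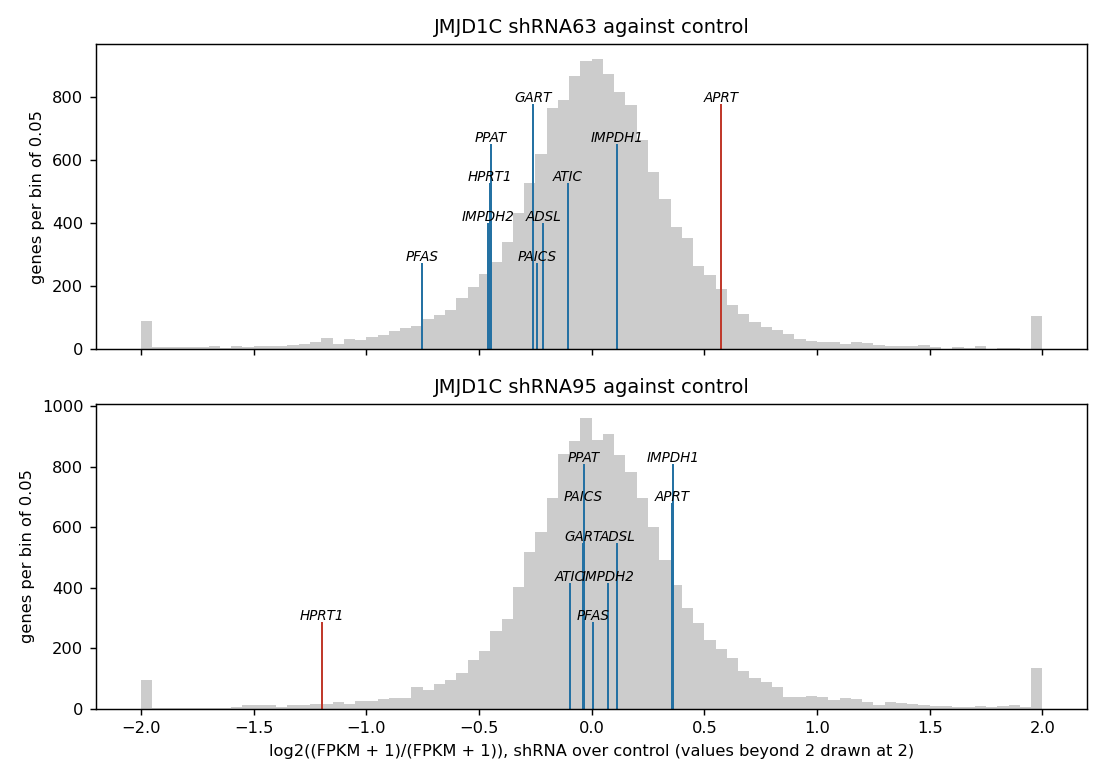
Histogram (bins of 0.05) of log2((FPKM + 1)/(FPKM + 1)), shRNA over control, for all measured genes with shRNA63 (top) and shRNA95 (bottom), with a line for each of the 10 genes, red where called. PFAS lies at -0.75 and APRT at 0.57 in the upper panel, and HPRT1 at -1.20 stands apart from the other 9 in the lower panel.

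Set against each other, the hairpins gave no detectable difference for the 10 genes, but the test reached only large differences. The test compared the 2 log2 fold changes over their joint error, with Benjamini-Hochberg adjustment over 13870 genes. It passed for 0 of the 10 genes, against 1.08% of all genes tested (0.353% higher and 0.728% lower with shRNA63), and none of the 10 had an unadjusted p under 0.05, against 5.44% of all. For HPRT1, shRNA63 minus shRNA95 was 0.76 (error 0.41, 95% interval -0.053 to 1.57), and from the authors' errors the unadjusted p = 0.0671 and the adjusted p = 1. Over all genes, the smallest difference that passed had a size of 1.24, above the largest among the 10 genes, which was 0.79 for PFAS. Differences of the size seen here thus passed for no gene at all, and whether HPRT1 responded differently to the hairpins is not settled by this test. For APRT the difference was 0.22 (95% interval -0.52 to 0.95), for PFAS -0.79 (95% interval -2.03 to 0.45) and for IMPDH2 -0.54 (95% interval -1.26 to 0.18).

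In the AML1-ETO comparison none of the 10 genes was called. The authors' deposited table tested 9 of them and called 0, against 0.411% of 22406 tested genes (0.187% called lower). None of the 9 had an unadjusted p under 0.05 there, against 6.67% of all genes in either direction and 3.2% on the lower side. PAICS has no estimate there, since the fit failed. HPRT1 was at -0.44 (error 0.54), APRT at 0.23 (error 0.51) and PPAT at -0.58 (error 0.40) in the authors' deposited table. All 5 estimated genes from PPAT to ATIC had negative values, from -0.58 to -0.10, in the authors' deposited table. Of the 15 proliferation genes taken up below, 13 were negative there as well, with a median of -0.41. For the branch to GMP, the authors' deposited table gave 0.32 for IMPDH2 (error 0.48) and 0.027 for IMPDH1 (error 0.61). The median of the 9 was -0.27, against -0.014 over 21727 genes, and 6 of the 9 were negative, where 50.9% of those genes were. With 1 library on each side, this test compares those libraries and has no replicate check. RUNX1T1, the fusion partner, was at -1.04 (error 0.87) without a call, so its mRNA gives no clear check of the knockdown. Of the other myeloblast markers, CD34 was at -2.15 and KIT at -0.96, and CD33 went the other way at 0.59.

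**Figure D3:**
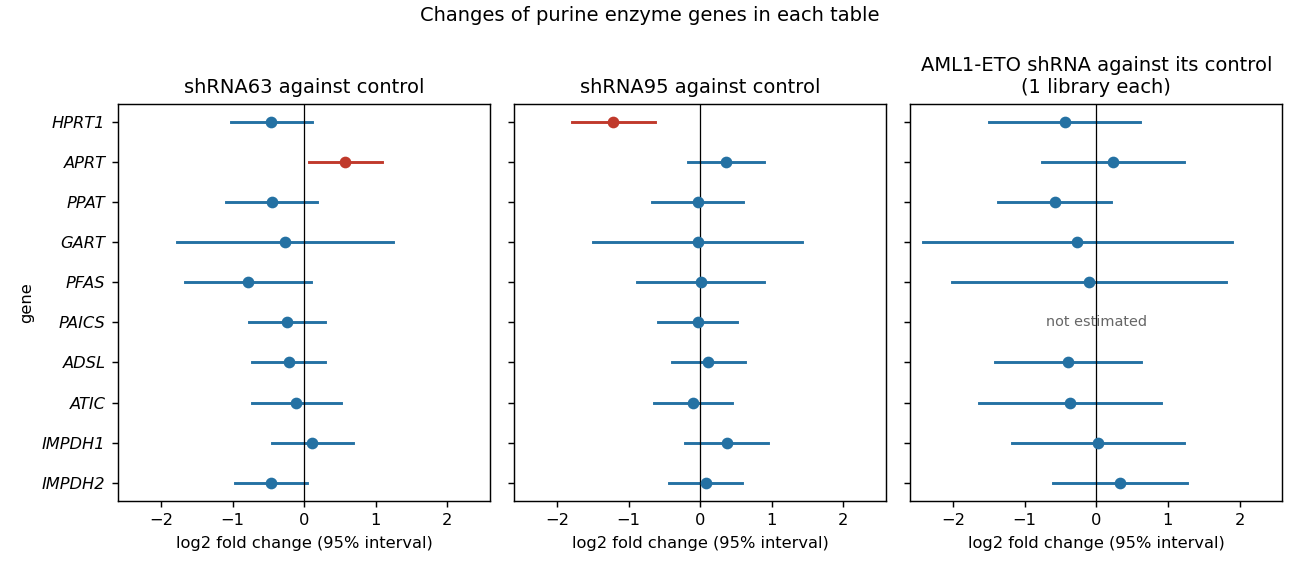
Log2 fold change of the 10 genes with 95% intervals (bars) against control for shRNA63, shRNA95 and the AML1-ETO shRNA; red marks q under 0.05, and the JMJD1C panels use the FPKM ratio and its error. Apart from APRT with shRNA63 and HPRT1 with shRNA95, every bar reaches across 0.

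Beyond the 10 genes, 47 further symbols of purine metabolism were listed, of which 44 were in the tables and 40 were tested with each hairpin. With shRNA63, 1 was called higher and 2 lower in the authors' deposited table, against 2.29% and 2.83% of all tested genes. ADSS, which encodes adenylosuccinate synthase, the step from IMP towards AMP just before ADSL, fell from 61.5 to 24.5 FPKM. Its log2 fold change was -1.33 (error 0.26, q = 0.00214) in the authors' deposited table. The locus of ADSS holds 4 listed genes, so its value may hold reads of the others. RRM2B, a small subunit of ribonucleotide reductase that is induced by p53, fell to 7.28 FPKM, or 48.5% of control (log2 fold change -1.04, error 0.34, q = 0.0333 in the authors' deposited table). NT5E, the surface 5'-nucleotidase CD73 that makes adenosine, rose from 0.287 to 0.967 FPKM, a low level. Of the 38 measured genes 24 had negative ratios, where 48.9% of all measured genes did, with a median of -0.12 against 0.0087 over all.

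The paralog of ADSS, ADSSL1, had 4.11 against 4.42 FPKM with shRNA63. GMPS, which makes GMP after IMPDH, had 63.6 against 76.5 FPKM without a call. The ratio of ADSS to GMPS was 0.80 in the control and 0.39 with shRNA63, while with shRNA95 it was 0.84.

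With shRNA95, 4 of the 40 genes were called higher and 0 lower in the authors' deposited table, against 2.59% and 1.82% of all tested genes. Of those called, 3 encode nucleoside carriers of the cell membrane. SLC29A2, an equilibrative carrier, stood at 14.9 FPKM in the control and rose to 25.3 FPKM (0.77, error 0.26, q = 0.00216 in the authors' deposited table). SLC29A1, the main equilibrative carrier, rose from 75.3 to 110.5 FPKM (0.55, error 0.25, q = 0.0403) and the concentrative carrier gene SLC28A3 from 1.91 to 3.73 FPKM (0.96, error 0.34, q = 0.0104) in the authors' deposited table. The fourth carrier listed, SLC29A3, which acts in lysosomes, had 4.50 against 4.49 FPKM.

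NT5E was the other gene called higher with shRNA95, from 0.278 to 3.66 FPKM (3.72 on the log2 scale, error 0.58, q = 0.00216 in the authors' deposited table). It was called higher with shRNA63 too (1.75, error 0.61, q = 0.00214 in the authors' deposited table), against the same controls. Since it stayed under 1 FPKM with shRNA63, the hairpin test left it out. In the AML1-ETO comparison NT5E was at 2.09 (error 1.03) without a call. ADSS had 65.0 against 59.6 FPKM with shRNA95. Of the 39 measured genes 30 had positive ratios and 9 negative ones, where 46% of all measured genes were negative. Their median was 0.13, against 0.032 over all measured genes.

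From the authors' errors, the test of the difference between hairpins passed for ADSS, at -1.45 (error 0.37, adjusted p = 0.0103), and for RRM2B, at -1.65 (error 0.44, adjusted p = 0.0194). From the authors' errors it did not pass for SLC29A2, at -1.12 (error 0.37, adjusted p = 0.147), SLC29A1, at -0.88 (adjusted p = 0.453), or SLC28A3, at -1.06 (adjusted p = 0.948). In the AML1-ETO comparison, with 1 library on each side, the 41 tested genes of this list had a median of -0.055, against -0.014 over all genes. Of the 41, 22 had negative values, where 50.9% of all genes did.

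**Figure D4:**
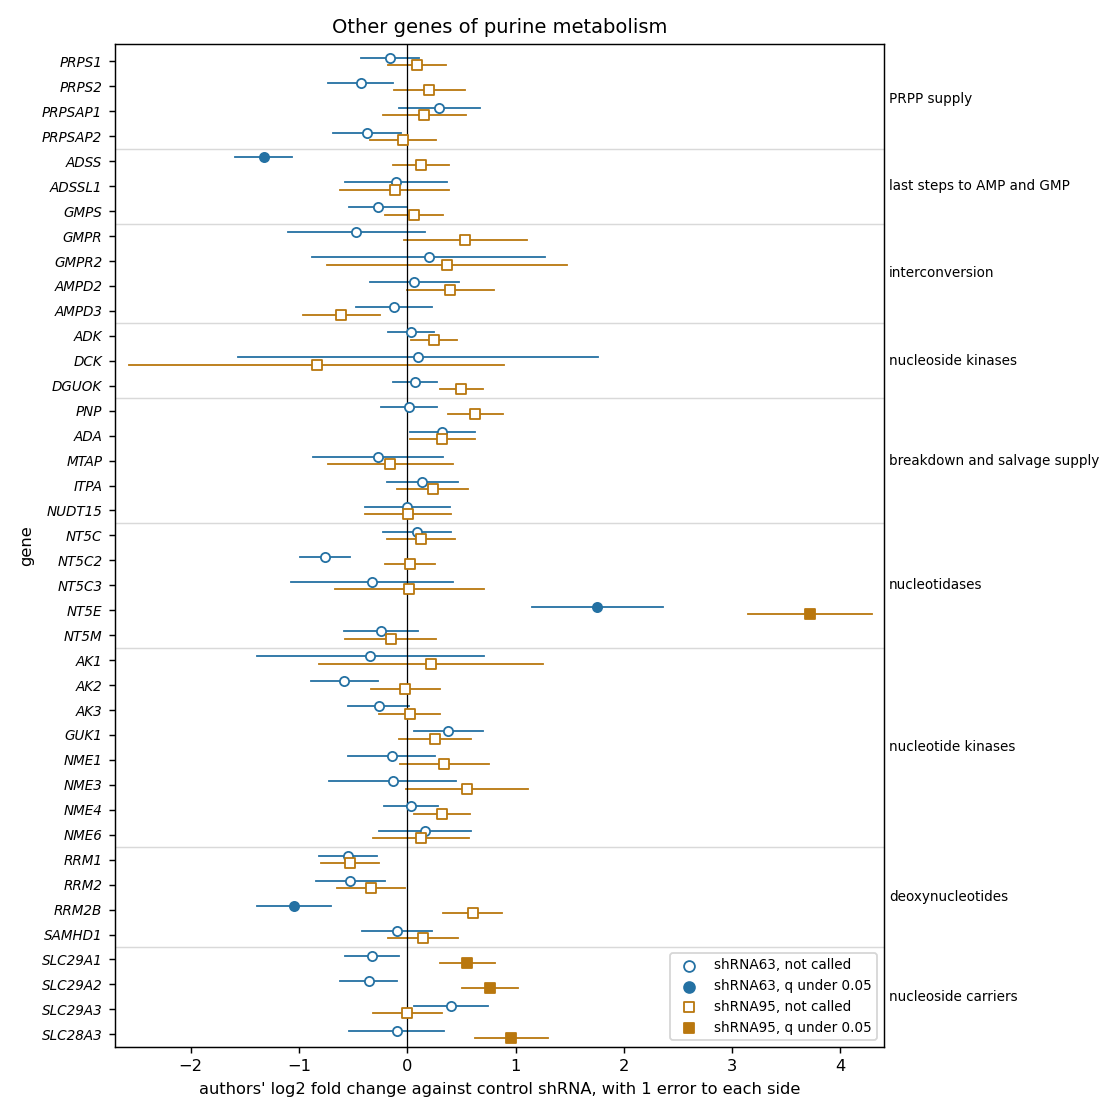
Log2 fold change of the other purine genes tested with both hairpins, with 1 error to each side, grouped by role; circles are shRNA63 and squares shRNA95, filled where called. ADSS and RRM2B lie at -1.33 and -1.04 with shRNA63, and SLC29A1, SLC29A2 and SLC28A3 at 0.55 to 0.96 with shRNA95.

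Purine synthesis draws formyl groups from folate, and genes of folate one-carbon supply were measured beside them. With shRNA63, 10 of 11 measured genes had negative ratios, with a median of -0.26, where 48.9% of all measured genes were negative. Of the 11, 1 was called lower in the authors' deposited table, against 2.83% of all genes, and 5 had an unadjusted p under 0.05 on the lower side, against 6.67%. The gene called was ALDH1L2, a mitochondrial formyltetrahydrofolate dehydrogenase, which fell from 15.5 to 7.29 FPKM (-1.09, error 0.30, q = 0.00214 in the authors' deposited table). With shRNA95, 2 of 11 were negative, against 46% of all measured genes, with a median of 0.18. None of the 11 was called in the authors' deposited table, against 4.4% of all genes, and 1 had an unadjusted p under 0.05, against 12.3%. That was ALDH1L2, with 22.8 against 15.1 FPKM.

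Genes of cell division were measured beside the purine genes. Of 15 proliferation genes, 12 had negative ratios with shRNA63, with a median of -0.39, and 2 were called lower in the authors' deposited table: TOP2A (157.6 to 85.4 FPKM) and RFC3 (25.4 to 14.6 FPKM). Of all tested genes 2.83% were called lower. An unadjusted p under 0.05 on the lower side was given to 7 of the 15 in the authors' deposited table, against 6.67% of all genes. With shRNA95 the median was -0.024, with 0 calls among 15 and 0 at an unadjusted p under 0.05 in the authors' deposited table, against 4.4% and 12.3% of all genes. The list summed to 2457 FPKM in the control and 1889 FPKM with shRNA63, and to 2381 and 2406 FPKM in the shRNA95 table. The 10 purine enzymes summed to 1411 and 1258 FPKM, and to 1368 and 1375 FPKM. The part of proliferation in the purine values was not tested.

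Among regulators, MYC, whose protein binds E-boxes and activates purine synthesis genes, had 259.8 against 374.2 FPKM with shRNA63. Its log2 fold change was -0.53 (error 0.28, q = 0.104) in the authors' deposited table. With shRNA95 it had 335.4 against 362.8 FPKM. MYCN, its relative, fell from 12.1 to 3.70 FPKM with shRNA95 and had 13.4 against 12.5 FPKM with shRNA63. In the AML1-ETO comparison MYCN was called lower, at -3.49 (error 0.72, q = 0.0178), in the authors' deposited table. ATF4, which drives serine and folate enzyme genes, had 207.4 against 267.0 FPKM with shRNA63 and 295.5 against 258.7 FPKM with shRNA95, without a call. NRF1 had 12.4 against 12.6 FPKM with shRNA63 and 12.4 against 12.2 FPKM with shRNA95. In bulk RNA, fewer cells of a type and less RNA per cell cannot be told apart.

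HPRT1 is often used to scale RNA measurements, and 13 other such genes were listed beside it. Of the 12 tested, 0 were called with either hairpin in the authors' deposited tables, with 1 at an unadjusted p under 0.05 with shRNA63 and 2 with shRNA95. Of all tested genes 5.12% and 4.4% were called and 13.4% and 12.3% had such a p, so these counts do not stand apart. The median ratio of the 12 was 0.0099 with shRNA63 and 0.17 with shRNA95, against 0.0087 and 0.032 over all measured genes. TFRC was listed at 0, since its fit failed.

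Near-identical copies could take reads from the members. Values were drawn for copies of PPAT, PAICS and IMPDH1 only, so copies of HPRT1 and the other members are not covered. PPATP1, PAICSP1, PAICSP3, PAICSP4, IMPDH1P4 and IMPDH1P6 were each under 0.3 FPKM in every group of the JMJD1C tables. IMPDH1P10 had 1.203 FPKM in the control and 1.16 FPKM with shRNA63, against 33.0 and 35.7 FPKM for IMPDH1.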

How the data were processed

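RNA sequencing values came from 3 deposited tables, whose columns are those Cuffdiff writes per gene, per the file headers. TopHat2 2.0.8b, Cuffdiff 2.1.1 and the build hg19 are named in the submitters' processing notes, with no role or order. The aligner and counting settings, and whether strand was kept, are not given in the sources used here. The FPKM values are the authors', 1 per group, with no scaling step stated in the labels. The log2 fold change, the test statistic (a score) and the p-value and q-value are the authors', as deposited. The AML1-ETO file also has FPKM columns (2) for libraries outside this series, which were left out.

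A gene was called where its status was OK and its q-value, adjusted by the authors over all tested genes, was under 0.05. The smallest p they gave was 5e-05. The error is the size of the log2 fold change over the statistic, and the 95% interval is normal. For the JMJD1C hairpins the deposited p corresponds to a deviate 1.41 times as large as the statistic (median). At the median these errors are therefore the wider of the possible readings, but not for every gene. RRM2B with shRNA95 had a statistic of 2.21 and p = 0.05915 in the authors' deposited table, so its error is the narrower reading. Ratios used a pseudocount of 1 FPKM, and a measured gene was tested with at least 1 FPKM in the higher group. The hairpin test (two-sided, normal, Benjamini-Hochberg) raised errors below the 10th percentile to it. It is an approximation built on the authors' errors, since an exact test would need values per library, and it treats the errors as independent although the controls are shared. The hairpin test was tried on simulated data in which 200 of 13870 genes were altered, with Python 3.11.15 and scipy 1.17.1. Of the altered genes, 0% passed where the simulated difference was 1 on the log2 scale. With a difference of 2 the share was 46%, and with 3 it was 75.5%. False calls numbered 0 in each case. A member that did not pass may therefore still differ by up to that smallest simulated size or more.

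The text names each of the 10 genes, the genes of the other lists that were called in any table, and fixed regulators. ADSSL1, GMPS, SLC29A3 and the copies and neighbours of members were named for comparison after their values were seen. The members and lists were chosen with earlier results of these data known. Alternatives changed the q threshold, the genes adjusted over, a minimum size, the pseudocount, the filter, the centring and the errors. Nothing could be left out library by library, since the tables hold 1 value per group. Some marker genes are not reported here.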

Additional observations from a re-analysis of the deposited data

Results flagged for a closer look

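The test of the difference between hairpins, adjusted over 13870 genes, passed for 150 of them (1.08%). Among 94 tested genes of the lists and regulators beside the 10 enzymes it passed for 4. ADSS, of AMP synthesis, had a shRNA63 minus shRNA95 difference of -1.45 on the log2 scale (from the authors' errors, adjusted p = 0.0103). The locus of ADSS holds 4 listed genes. ALDH1L2, of mitochondrial folate metabolism, differed by -1.69 (from the authors' errors, adjusted p = 0.00951). RRM2B, of ribonucleotide reductase, differed by -1.65 (from the authors' errors, adjusted p = 0.0194). MYCN differed the other way, by 1.81 (from the authors' errors, adjusted p = 0.000347), and was lower with shRNA95.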

How the results depend on the processing

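No paired analysis was possible because each table holds 1 value per group, and for the same reason no library could be left out. At a q threshold of 0.01 the members called with shRNA63 came to 0, since APRT lost its call. So they did with a size of at least 0.58 on the log2 scale, which APRT, at 0.577, missed only narrowly. With shRNA95, 1 member was called under each of the 4 alternatives to the call rule. At a q threshold of 0.01, 2 other purine genes were called with shRNA95 (4 in the main analysis), and 559 genes in all with shRNA63 and 508 with shRNA95, against 936 and 793. A stricter threshold calls fewer genes by construction. Over the 6 alternatives to the hairpin test, the lowest adjusted p of HPRT1 was 0.151 and the highest was 1. The lowest came where a fixed factor reduced the joint error of every gene, to stand for the shared controls. The part of the error that comes from the controls was not estimated. With this factor, or with errors scaled to the deposited p, 2 members had an unadjusted p under 0.05. Such a p was not counted over all genes in these settings, so this count has no background. After adjustment 0 members passed in either setting, where 587 and 206 genes passed in all. The log2 ratio from FPKM was added after PAICS had been seen. The median of the 10 genes lay between -0.26 and -0.25 with shRNA63 and between -0.18 and -0.014 with shRNA95, where centring on reference genes gave the lowest value. Depth per library is unknown, and no spread between cultures can be read from these tables.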

Other observations

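Pyrimidine synthesis supplies the other nucleotides for RNA and DNA. Of its 13 tested genes 0 were called with either hairpin in the authors' deposited tables, with 1 at an unadjusted p under 0.05 with shRNA63 and 2 with shRNA95. Of all tested genes 5.12% and 4.4% were called and 13.4% and 12.3% had such a p, so these counts do not stand apart. The median ratio was -0.050 with shRNA63 and 0.098 with shRNA95.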
